A study of Mus musculus with 3 samples.

Results

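The genes described here code for 10 proteins that mucosal surfaces such as the airway release or carry: Bpifa1, Reg3g, Lcn2, Ltf, Wfdc2, Wfdc18, Pigr, Gp2, Muc4 and Muc5b. They were taken from 32285 measured gene rows as a list of symbols, and all 10 were found in the count matrix. The genes were selected on their raw UMI counts in the epithelial cells of these same libraries, where several of them marked 1 cluster. Every level below is therefore a description and carries no test. The study grew thymic tissue of wild-type C57BL/6J mice in culture and profiled single cells on day 13. ORFTOC, the organoid reaggregate, joined thymic epithelial cells (TECs) of E16.5 embryos, first grown as organoids with the growth factor FGF7, with E13.5 thymus cells depleted of EpCAM-positive epithelium and with mouse embryonic fibroblasts. FTOC, the fetal thymic organ culture that served as control, held intact E13.5 lobes. Both kinds of culture were kept in the same medium, which also held FGF7. The hashtag barcodes tell the pools apart but not the 2 cultures joined in each pool, and both pools shared 1 lane, so each pool is 1 sample with no replicates.

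The thymic medulla contains epithelial cells that carry the gene programmes of other organs, which shows developing T cells the proteins of those organs. Some of these cells resemble secretory cells of the airway. In the airway such cells release antimicrobial proteins, protease inhibitors and mucins into the surface fluid and carry antibodies across the epithelium, and cytokines such as IL-22 and IL-17 raise several of these genes there.

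The stretches of 250 bases before the start sites of 4 of the genes are shown because these genes carry the contrast described next, with levels in airway-like cells that lean to opposite pools: Bpifa1 and Lcn2 ran higher in ORFTOC, Wfdc2 and Reg3g higher in FTOC. They are RefSeq sequences of build GRCm38.p6, printed 5′ to 3′ on the strand of the gene, with capitals for matches to the motifs named after them. The positions are chr2:154142630-154142879 on the plus strand for Bpifa1, chr2:32387740-32387989 on the minus strand for Lcn2, chr2:164562465-164562714 on the plus strand for Wfdc2 and chr6:78468875-78469124 on the minus strand for Reg3g.
Bpifa1: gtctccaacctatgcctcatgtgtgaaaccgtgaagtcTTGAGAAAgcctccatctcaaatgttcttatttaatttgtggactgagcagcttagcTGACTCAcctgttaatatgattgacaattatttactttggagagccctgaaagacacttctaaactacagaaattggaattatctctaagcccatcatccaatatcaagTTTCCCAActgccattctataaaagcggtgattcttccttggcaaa
Lcn2: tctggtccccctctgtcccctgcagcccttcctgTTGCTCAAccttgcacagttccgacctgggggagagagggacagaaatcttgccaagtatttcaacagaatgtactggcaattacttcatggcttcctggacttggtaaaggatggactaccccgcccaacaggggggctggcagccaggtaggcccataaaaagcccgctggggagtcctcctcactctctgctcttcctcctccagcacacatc
Wfdc2: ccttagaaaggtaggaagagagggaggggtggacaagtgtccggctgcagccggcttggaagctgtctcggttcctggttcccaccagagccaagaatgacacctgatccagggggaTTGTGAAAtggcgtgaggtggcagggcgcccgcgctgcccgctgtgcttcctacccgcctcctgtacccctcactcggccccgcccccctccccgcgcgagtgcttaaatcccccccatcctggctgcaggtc
Reg3g: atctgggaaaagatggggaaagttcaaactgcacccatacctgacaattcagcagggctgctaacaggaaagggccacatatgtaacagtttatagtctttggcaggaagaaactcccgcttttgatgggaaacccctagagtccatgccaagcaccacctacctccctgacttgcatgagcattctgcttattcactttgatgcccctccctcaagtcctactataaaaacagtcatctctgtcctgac

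Both strands of these stretches were searched for simple forms of motifs of factors known from inflamed or secretory epithelium, chosen after the expression values had been seen. The C/EBP form TTNNGNAA was present in 6 of the 9 members with a RefSeq promoter (all but Muc5b), namely Bpifa1, Lcn2, Wfdc2, Ltf, Gp2 and Muc4, and in 36.8% of all 32851 promoter stretches of the same length. In Bpifa1 it lay from -212 to -205 (TTGAGAAA) and from -46 to -39 (TTTCCCAA), in Lcn2 from -216 to -209 (TTGCTCAA) and in Wfdc2 from -133 to -126 (TTGTGAAA), counted back from the start site. The AP-1 form TGANTCA was present in Bpifa1 alone among the members, from -155 to -149 (TGACTCA), and in 6.75% of all stretches. The STAT form TTCNNNGAA (7.02% of all stretches), the NF-kB form of GGG, 2 free bases and TTTCC (1.41%) and the FOX forms TGTTTAC (3.17%) and TGTTTGC (4.3%) had no match in any member. A match describes letters in this window and no more.

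The matrix held 705161 barcodes and 103984163 unique molecular identifiers (UMIs, each standing for 1 captured RNA molecule). After filtering and hashtag assignment 8392 cells were kept, of which 2190 were epithelial. The 1231 epithelial cells of ORFTOC had a median of 13344 UMIs and the 959 of FTOC a median of 12139 UMIs. Levels are sums of UMIs over the cells of a pool, scaled to counts per 1000000 UMIs (CPM) and not divided by gene length, so they are compared for the same gene and not between genes. Intervals (95%, exact Poisson for UMIs and Clopper-Pearson for shares of cells) cover counting error only and say nothing of the spread between cultures. The ambient level of a gene, its level in RNA outside cells, was taken from the 473890 barcodes under 100 UMIs, which together held 4581105 UMIs. A cell counted as above ambient for a gene when it held at least 3 UMIs of it and more than a Poisson count at the ambient level and the depth of that cell would pass 0.1% of the time.

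Clustering without the 10 genes gave 9 epithelial clusters. The one with the highest summed level of the 10 genes was picked and had 449 cells. It held 86.6% of all epithelial UMIs of the 10 genes (interval 86.5 to 86.7) while holding 5329467 of 29745518 epithelial UMIs. It was named airway-like from markers other than the 10 genes. Scgb3a1 (a secretoglobin, 230 CPM), Sftpd (surfactant protein D, 359 CPM), Slpi (a secreted protease inhibitor, 444 CPM) and Agr2 (a chaperone of mucin folding, 153 CPM) stood higher there than in any other epithelial cluster. Cyp2f2, a cytochrome of club cells, stood at 768 CPM, below the 862 CPM of ionocyte-like cells. The name has limits, since Scgb1a1, the defining club cell gene, had no UMI in this cluster and 49.4 CPM in the Aire mTEC-like cluster. Another listed marker, Cbr2, stood at 1659 CPM, below the 1795 CPM of the cTEC-like cluster. Of the 12 markers, 2 were at 0 in the ORFTOC cells of the cluster (Scgb1a1 and Tff2) and 1 in the FTOC cells, and their summed level was 3247 CPM against 5447 CPM. Immune markers summed to 2.39% of their ambient level in it. Lcn2 and Ltf are also genes of neutrophils. The 9 neutrophil markers summed to 126 CPM in ORFTOC and 312 CPM in FTOC airway-like cells, most of it from Camp (125 and 267 CPM), with S100a8 at 0.485 and 33.1 CPM and S100a9 at 0 and 12.4 CPM. Ly6g, Ngp, Retnlg, Mpo, Elane and Csf3r were at 0 in both pools. The part of these markers in the Lcn2 and Ltf levels was not tested.

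The airway-like cluster held 339 ORFTOC cells (27.5% of that pool's epithelium, median 11583 UMIs) and 110 FTOC cells (11.5%, median 10661.5 UMIs). ORFTOC cells thus made up 75.5% of it (71.3 to 79.4), beside 1231 of 2190 cells in the whole epithelium. The share of epithelial UMIs that fell in this cluster differed among the genes. It was 99.4% for Muc5b, 95.2% for Ltf, 93.8% for Bpifa1, 85.3% for Reg3g, 83.7% for Pigr, 82.0% for Lcn2 and 81.6% for Wfdc2. It was 76.1% for Gp2, 51.8% for Muc4 and 47.5% for Wfdc18, whose other UMIs lay in clusters described further on. By pool the share differed most for Ltf (97.1% in ORFTOC, 67.3% of 49 UMIs in FTOC), Wfdc18 (56.0% and 30.6%) and Muc4 (45.5% and 60.4%).

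**Figure D1:**
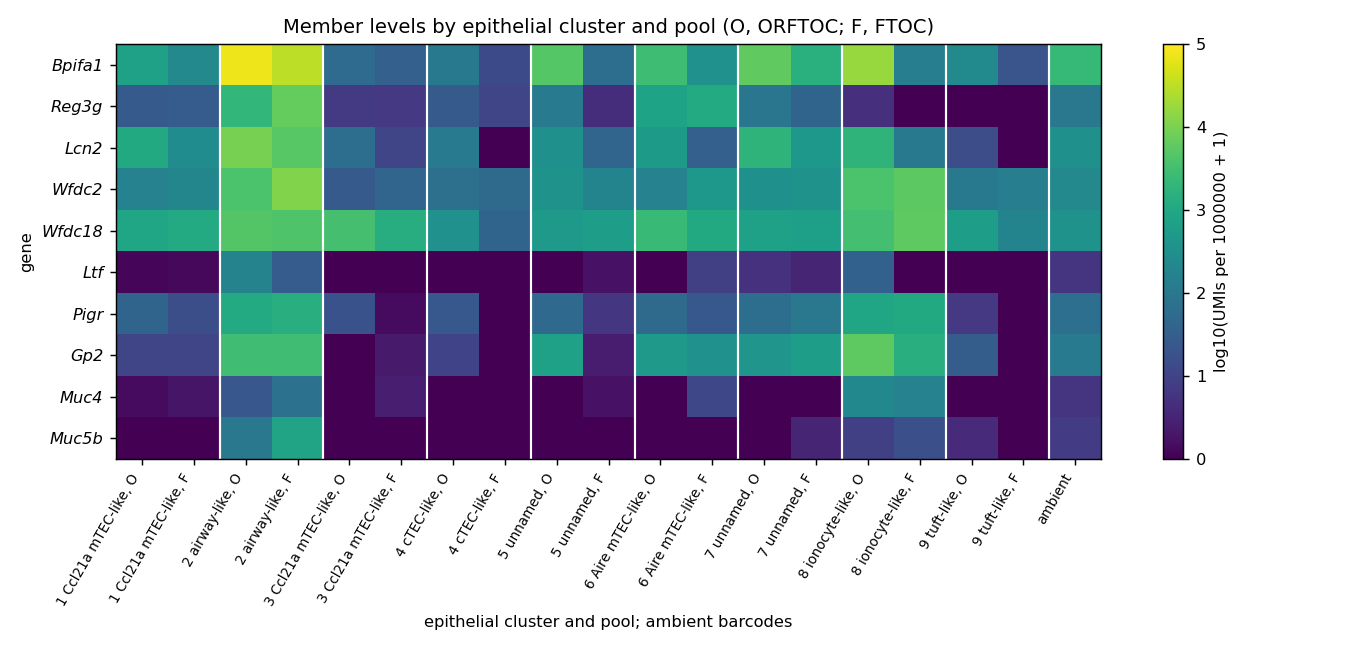
Level of each of the 10 genes (rows) in each epithelial cluster and pool (columns; O, ORFTOC; F, FTOC) and in ambient barcodes, as log10(UMIs per 1000000 + 1) on the colour scale. The airway-like columns are the brightest for Bpifa1, Lcn2 and Muc5b, while Gp2 and Muc4 are also bright in the ionocyte-like columns and Wfdc18 in several clusters.

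Bpifa1 codes for a secreted airway surface protein that binds lipopolysaccharide and lowers surface tension (ENSMUSG00000027483, chr2:154142880-154149217). In airway-like cells it stood at 74003 CPM in ORFTOC (305038 UMIs, interval 73741 to 74266) and 31872 CPM in FTOC (38485 UMIs, 31554 to 32192), against an ambient 2224 CPM. The ratio of ORFTOC over FTOC was 2.32 (log2 1.22, upper bound 1.23). Bpifa1 was above ambient in 284 of the 339 ORFTOC cells (83.8%, 79.4 to 87.5) but in 64 of the 110 FTOC cells (58.2%, 48.4 to 67.5). The median cell showed a wider gap, with 58817.5 CPM in ORFTOC and 9377 CPM in FTOC. The highest single cell reached 261876 CPM in ORFTOC and 199757 CPM in FTOC. Cells of both pools ranged from no UMI upwards, and the highest ORFTOC cells lay above every FTOC cell. A UMI of Bpifa1 was found in 97.1% of ORFTOC and 88.2% of FTOC airway-like cells, and with each cell thinned to 1000 UMIs in 89.4% and 69.1%.

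Lcn2 (lipocalin 2, which withholds iron from bacteria by binding their siderophores; ENSMUSG00000026822, chr2:32384637-32387739) was present in nearly every airway-like cell. Its level was 9414 CPM in ORFTOC (38805 UMIs, interval 9321 to 9508) and 5010.4 CPM in FTOC (6050 UMIs, 4885 to 5138), against an ambient 320 CPM. The ratio was 1.88 (log2 0.91, 0.87 to 0.95). Lcn2 was above ambient in 314 ORFTOC cells (92.6%, 89.3 to 95.2) and 85 FTOC cells (77.3%, 68.3 to 84.7), and no cell held more than 1.74% and 4.61% of the pool's UMIs. Lcn2 was thus the most evenly spread of the 4 antimicrobial genes by the share of the top cell.

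Reg3g codes for a secreted lectin that kills Gram-positive bacteria (ENSMUSG00000030017, chr6:78466269-78468874) and was carried by few cells. Its summed level in airway-like cells was 2050.5 CPM in ORFTOC (8452 UMIs, interval 2007 to 2095) and 6609 CPM in FTOC (7980 UMIs, 6464 to 6755), against an ambient 100.4 CPM. The log2 ratio was -1.69 (-1.73 to -1.64), but few cells passed the ambient level, 37 of 339 in ORFTOC (10.9%, 7.80 to 14.7) and 18 of 110 in FTOC (16.4%, 9.996 to 24.6). A single cell held 30.3% of the ORFTOC UMIs and another 21.1% of the FTOC UMIs, and the median cell of either pool had none. Over the whole epithelium 8 cells held 50% of all Reg3g UMIs. When the 5% of cells highest in Reg3g were left out of each pool, 17 in ORFTOC and 6 in FTOC, the levels were 106 CPM and 2016 CPM, a log2 ratio of -4.25. Those cells held 95.1% of the ORFTOC and 71.5% of the FTOC UMIs.

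Ltf (lactoferrin, an iron-binding protein of secretions; ENSMUSG00000032496, chr9:111019292-111042766) rested on few counts. It had 701 UMIs in ORFTOC airway-like cells (170.1 CPM, interval 158 to 183) and 33 UMIs in FTOC airway-like cells (27.3 CPM, 18.8 to 38.4), against an ambient 5.02 CPM. The ratio was 6.22 (log2 2.64, 2.13 to 3.19). It was above ambient in 41 ORFTOC cells (12.1%) and in 4 FTOC cells (3.64%), and 1 FTOC cell held 14 of the 33 UMIs.

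**Figure D2:**
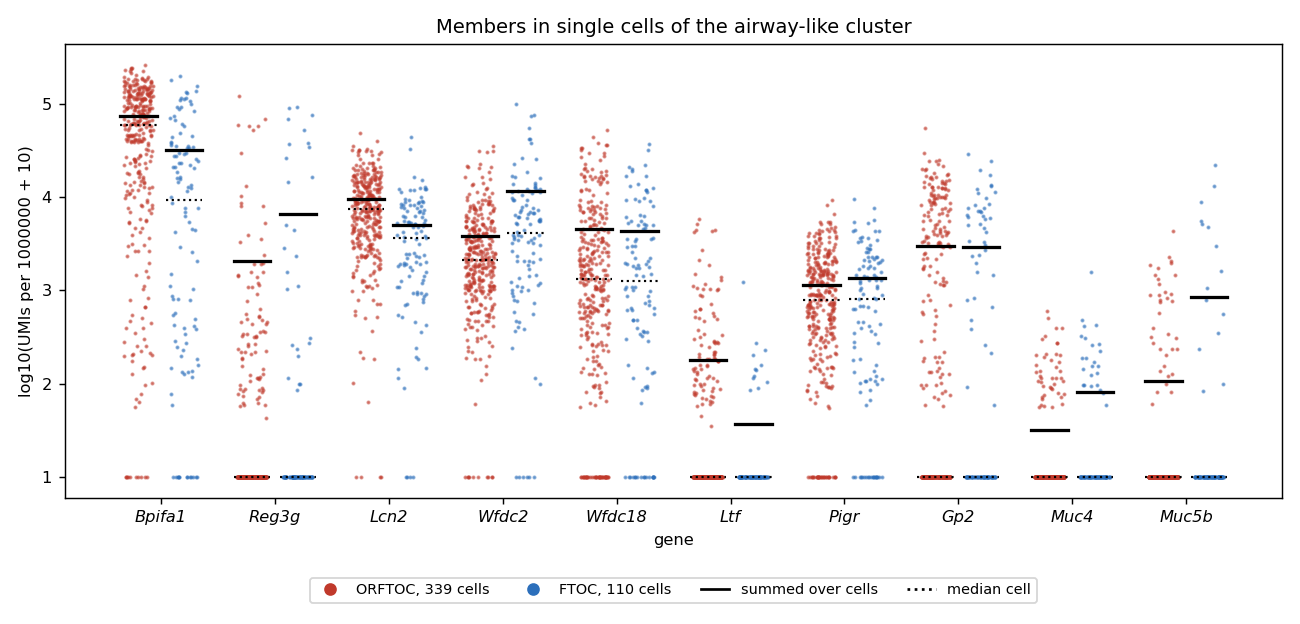
Each point is 1 airway-like cell (red, 339 ORFTOC cells; blue, 110 FTOC cells), placed by log10(UMIs per 1000000 + 10) of the gene, so that cells with no UMI lie at 1. Solid bars give the level summed over the cells and dotted bars the median cell. Bpifa1 and Lcn2 fill both columns, with medians of 58817.5 and 9377 CPM for Bpifa1, while the high bars of Reg3g and Muc5b rest on a few cells each.

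Wfdc2 codes for a small secreted protein with WAP domains (ENSMUSG00000017723, chr2:164562715-164568510). Unlike Bpifa1 and Lcn2 it ran higher in FTOC airway-like cells, with 11499 CPM (13885 UMIs, interval 11309 to 11692) against 3845 CPM in ORFTOC (15850 UMIs, 3786 to 3906). The log2 ratio was -1.58 (-1.61 to -1.55), the ambient level 220 CPM. The median cell showed the same order, with 4069.99 CPM in FTOC and 2125 CPM in ORFTOC, and the shares of cells above ambient were near each other at 83.6% (75.4 to 90.0) and 79.1% (74.3 to 83.3). One FTOC cell held 13.1% of the pool's UMIs, and without the top 5% of cells the log2 ratio was -1.25.

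Wfdc18, a gene of the same family (ENSMUSG00000000983, chr11:83709004-83711360), showed almost no gap between pools in this cluster. Its level was 4565 CPM in ORFTOC (18816 UMIs, interval 4499.8 to 4631) and 4267.5 CPM in FTOC (5153 UMIs, 4152 to 4386), a log2 ratio of 0.10 (0.05 to 0.14), beside an ambient 368 CPM. It was above ambient in 181 of 339 and 55 of 110 cells, and the median cells held 1323 and 1249.9 CPM. Without the top 5% of cells the log2 ratio was -0.09, so its sign turned.

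Pigr carries polymeric antibodies across epithelium (ENSMUSG00000026417, chr1:130826684-130852249). Its airway-like level was 1128 CPM in ORFTOC (4651 UMIs, interval 1096 to 1161) and 1333 CPM in FTOC (1610 UMIs, 1269 to 1400.1), beside an ambient 67.2 CPM, and the log2 ratio was -0.24 (-0.32 to -0.16). The median cells were close, at 786 and 796 CPM, and 65.5% and 57.3% of cells were above ambient. Gp2 codes for a surface receptor for fimbriated bacteria best known from microfold cells (ENSMUSG00000030954, chr7:119442537-119459272). It stood at 2967 CPM in ORFTOC (12231 UMIs, 2915 to 3020.3) and 2912 CPM in FTOC (3516 UMIs, 2816 to 3009.7), with an ambient 117 CPM, and its log2 ratio of 0.03 had an interval (-0.03 to 0.08) that included 0. Gp2 split the cluster, since 38.1% of ORFTOC and 34.5% of FTOC cells were above ambient while the median cell had no UMI. The 7 other microfold markers summed to 674 CPM in ORFTOC and 628 CPM in FTOC airway-like cells, and Ccl20 was at 0 in the latter. Their sum was not particular to this cluster. It was highest in the Aire mTEC-like cluster (1589 and 1725 CPM). It stood at 730 and 812 CPM in cTEC-like cells and at 384 and 252 CPM in ionocyte-like cells.

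Muc5b, the gel-forming mucin of airway secretions (ENSMUSG00000066108, chr7:141839059-141873089), had 402 UMIs in ORFTOC airway-like cells (97.5 CPM, interval 88.2 to 108) and 1020 UMIs in FTOC airway-like cells (845 CPM, 794 to 898), against an ambient 6.77 CPM. The log2 ratio was -3.11 (-3.28 to -2.95). One FTOC cell held 44.3% of the FTOC UMIs and one ORFTOC cell 23.1% of the ORFTOC UMIs, with 13 and 26 cells above ambient. Without the top 5% of cells, which held 90.6% of the FTOC and 87.1% of the ORFTOC UMIs, the ratio was -2.67. Muc4, a mucin anchored in the cell membrane (ENSMUSG00000079620, chr16:32735886-32782391), had 90 and 87 UMIs, or 21.8 CPM (17.6 to 26.8) in ORFTOC and 72.0 CPM (57.7 to 88.9) in FTOC, a log2 ratio of -1.72 (-2.16 to -1.28). Only 9 ORFTOC and 8 FTOC cells were above its ambient level of 4.802 CPM.

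Over the whole epithelium the ratios of ORFTOC over FTOC were higher for every gene than in airway-like cells, as the plot of the ratios shows, and the sign differed for Pigr alone. Bpifa1 measured 18831 CPM in ORFTOC and 3263 CPM in FTOC (log2 2.53), Lcn2 2742 and 590 CPM (2.22), Ltf 41.8 and 3.93 CPM (3.41), Gp2 929 and 371 CPM (1.32) and Pigr 319 and 157 CPM (1.02). These 5 of 10 genes were 2-fold or more higher in ORFTOC, where 3.37% of 9544 genes at 10 CPM or more were. Ltf passed the limit of 10 CPM through ORFTOC alone. Muc5b, with 23.6 and 82.2 CPM (-1.80), was the 1 gene of the 10 that was 2-fold or more lower, where 2.45% were. Reg3g (544 and 791 CPM, -0.54), Wfdc2 (1122 and 1369 CPM, -0.29), Wfdc18 (1946 and 1352 CPM, 0.52) and Muc4 (11.5 and 11.6 CPM, -0.01) lay within 2-fold. The median log2 ratio of the 10 genes was 0.77, against 0.01 for all genes counted.

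Within airway-like cells 2 of the 10 genes were 2-fold or more higher in ORFTOC (Bpifa1 and Ltf), where 3.29% of 9208 genes were, and 4 were 2-fold or more lower (Reg3g, Wfdc2, Muc4 and Muc5b), where 3.55% were. The median log2 ratio of the 10 genes was -0.11. The levels of epithelial cells were also computed with each cluster given the same share in both pools. The log2 ratios were then 1.33 for Bpifa1, 1.14 for Lcn2, 2.45 for Ltf, 0.39 for Gp2, 0.27 for Wfdc18 and -0.12 for Pigr. They were -1.49 for Reg3g, -1.37 for Wfdc2, -1.01 for Muc4 and -3.10 for Muc5b. Each of the 9 clusters was weighted by its share of the epithelial UMIs of both pools together. All 9 were set alike in the pools at once, so the part of the airway-like cluster alone was not tested.

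**Figure D3:**
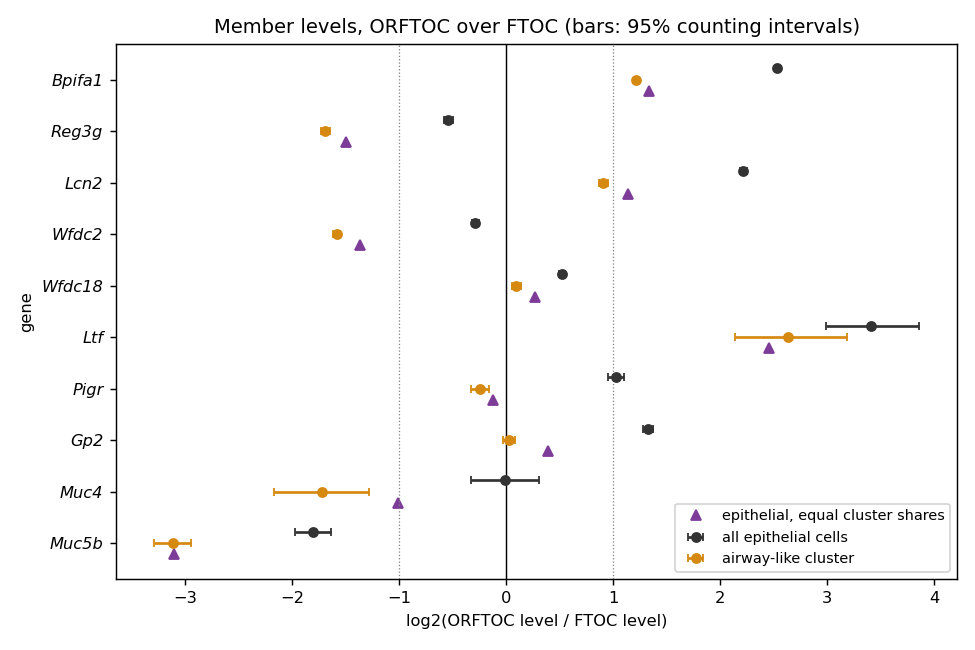
Log2 ratio of ORFTOC over FTOC levels of each gene in all epithelial cells (black), in airway-like cells (orange) and in all epithelial cells with equal cluster shares in both pools (purple triangles), with 95% counting intervals as bars and dotted lines at 2-fold. Every black point lies to the right of the orange one, and for Pigr and Gp2 the orange points lie near 0, at -0.24 and 0.03.

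Summed over the 10 genes, 26509.7 CPM were counted in ORFTOC epithelium and 7991 CPM in FTOC epithelium, or 2.65% and 0.799% of all epithelial UMIs. The ratio was 3.32 (log2 1.73, 1.72 to 1.74), and without Bpifa1, which gave most of the UMIs, it was 1.62 (log2 0.70). In airway-like cells the sum was 98263 and 64447 CPM (log2 0.61, 0.60 to 0.62), and without Bpifa1 it was 24260 and 32575 CPM, so that FTOC was higher (log2 -0.43). In the median airway-like cell the 10 genes took 8.24% of UMIs in ORFTOC and 3.66% in FTOC, with highest cells at 27.8% and 31.5%. At least 1 of the genes was above ambient in 49.2% of ORFTOC epithelial cells (46.4 to 52.1) and 29.6% of FTOC epithelial cells (26.7 to 32.6). At least 5 were above ambient in 14.6% and 5.11%, and in 49.0% and 40.9% of airway-like cells.

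Most airway-like cells carried several of the genes, with at least 3 above ambient in 91.2% of ORFTOC and 81.8% of FTOC cells. The genes found in fewer cells did not all mark the same ones. Reg3g and Muc5b went together. Of the 13 FTOC cells above ambient for Muc5b, 11 were above ambient for Reg3g (84.6%), compared with 7 of the other 97 (7.2%). In ORFTOC 12 of 26 such cells were (46.2%), compared with 25 of the other 313 (8.0%). All 13 and all 26 of these cells were above ambient for Wfdc2. Over log-scaled levels Reg3g and Muc5b had a Pearson r of 0.83 over 110 FTOC cells and 0.51 over 339 ORFTOC cells. Bpifa1 went with Lcn2 (0.37 and 0.31) and against Wfdc18 (-0.24 and -0.26). Bpifa1 and Wfdc2 had 0.36 in FTOC and -0.07 in ORFTOC. The cells of a pool share their library, their cultures and the scaling to depth, so these values describe the cells and carry no p-value.

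Outside the airway-like cluster the ionocyte-like cells held several of the genes. This cluster had 44 cells, 29 from ORFTOC and 15 from FTOC, and was led by Foxi1 and Ascl3, transcription factor genes of the ion-transporting ionocyte. Gp2 stood there at 5710 CPM in ORFTOC (2839 UMIs, 19 of 29 cells above ambient) and 1355 CPM in FTOC (258 UMIs, 5 of 15 cells). Muc4 stood at 213 CPM (106 UMIs) and 163 CPM (31 UMIs), with 40.1% of all epithelial Muc4 UMIs in these cells. Wfdc2 was above ambient in 27 of 29 and 15 of 15 cells, at 3865 and 5408 CPM, and Pigr in 22 and 10 cells, at 901 and 1092 CPM. Wfdc18 stood at 3139 CPM (1561 UMIs) in ORFTOC and 5713 CPM (1088 UMIs) in FTOC. Muc4 thus stood above its airway-like level in both pools, while Gp2 stood above it in ORFTOC and below it in FTOC. Wfdc18 stood below its airway-like level in ORFTOC (4565 CPM) and above it in FTOC (4267.5 CPM). Wfdc2 lay near its airway-like level in ORFTOC (3865 against 3845 CPM) and below it in FTOC. Reg3g had 2 UMIs in the ORFTOC cells and 0 in the FTOC cells, where the floor of 3 UMIs is 15.8 CPM. Bpifa1 differed between the pools, with 16609.8 CPM in ORFTOC (9 of 29 cells above ambient, 1 cell with 34.5% of the UMIs) and 137 CPM in FTOC (0 of 15 cells). Of the 9 genes at 10 CPM or more there, 4 were 2-fold or more higher in ORFTOC (Bpifa1, Lcn2, Gp2 and Ltf; 5.69% of all genes were) and 0 lower (13.4% were). Ltf passed the filter through ORFTOC alone, with 17 UMIs against 0, and the interval of its ratio (0.628 to 11.6 at the floor) included no change. Airway markers also summed to 2452 CPM and 1749 CPM in these cells.

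In the Aire mTEC-like cluster, cells that express many tissue-restricted genes, Reg3g stood at 796 CPM in ORFTOC (613 UMIs) and 1118 CPM in FTOC (1744 UMIs) and was above ambient in 5 of 41 and 15 of 72 cells. A UMI of Reg3g was found in 51.2% and 58.3% of these cells, more than in airway-like cells (26.0% and 24.5%), at medians of 16865 and 20141 UMIs per cell against 11583 and 10661.5. One cell held 65.6% of the ORFTOC and one 46.8% of the FTOC UMIs. The cluster held 12.2% of all epithelial Reg3g UMIs, and its immune markers summed to 39.1% of their ambient level. Gp2 was above ambient in 5 and 6 of its cells, at 504 and 342 CPM.

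Wfdc18 reached the Ccl21a mTEC-like clusters, the medullary cells that attract thymocytes through the chemokine Ccl21a. In the one led by Lypd1 (317 cells) it measured 3277 CPM in ORFTOC (43 of 122 cells above ambient) and 1296 CPM in FTOC (36 of 195 cells), while each other member stood under 65 CPM. In the one led by Krt14 and Krt15 (595 cells) it measured 887 CPM and 1157 CPM, and 1 FTOC cell held 51.7% of the FTOC UMIs. Lcn2 was above ambient in 62 of 350 ORFTOC and 20 of 245 FTOC cells of the latter cluster, at 1084 and 268 CPM. An unnamed epithelial cluster of 71 cells was led by the T-cell genes Ms4a4b and Cd3d, and its immune markers summed to 91.9% of their ambient level. Bpifa1 measured 6126 CPM in its ORFTOC cells and 1468 CPM in its FTOC cells. The part of those immune transcripts in its values was not tested.

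The remaining epithelial clusters held less. In cTEC-like cells the highest levels were 331 CPM for Wfdc18 in ORFTOC and 51.7 CPM for Wfdc2 in FTOC, and Bpifa1 stood at 105 and 12.1 CPM. In an unnamed cluster led by Igfbp2, mostly of FTOC cells (255 of 280), Wfdc18 measured 604 CPM and Wfdc2 181 CPM in FTOC, and in its 25 ORFTOC cells 1 cell held 91.7% of the Bpifa1 UMIs. In 25 tuft-like cells Wfdc18 led with 624 CPM in ORFTOC, where 5 of 21 cells were above ambient.

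Outside the cells sorted as epithelial a pair of populations stood out by the number of cells above ambient. Mesenchymal cells of ORFTOC held 833 Reg3g UMIs (179 CPM), with 17 of 212 cells above ambient, and those of FTOC 9 UMIs with 0 of 55 cells. In the same ORFTOC cells Bpifa1 had 972 UMIs, of which 1 cell held 95.4%. The other was an unnamed cluster of 140 cells, sorted with the immune cells but led by Pth and Chga, which are genes of the parathyroid. Its epithelial markers summed to 168% of their ambient level, against 7.97% over all cells sorted as immune. Whether it lies outside the epithelium is therefore unsure. Bpifa1 was above ambient in 12 of its 65 ORFTOC and 5 of its 75 FTOC cells.

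DP thymocyte-like cells, the CD4 and CD8 double-positive T-cell precursors, should lack these genes and give the background. A Bpifa1 UMI was found in 17.5% of 617 ORFTOC and 17.9% of 1505 FTOC cells of this class (median 1617 UMIs over both), and in 10.2% and 12.2% after thinning to 1000 UMIs. Their Bpifa1 level was 195 and 120.2 CPM, and 2 ORFTOC cells and 0 of the 1505 FTOC cells (a share of up to 0.245%) were above ambient for any member. Thinning left out 37 ORFTOC and 70 FTOC cells with fewer UMIs. All 7 members at 10 CPM or more in these cells or the ambient barcodes were 2-fold or more below ambient there, where 17% of 9532 genes were. Reg3g, Pigr and Gp2 passed this limit through the ambient barcodes alone. Epithelial markers summed to 7.47% of their ambient level in these cells. A gene that the cells lack would thus fall below ambient in any case, and the count carries no further weight. In airway-like cells all 10 were 2-fold or more above ambient, where 23.9% of 9935 genes were. They ranged from 6.92 times for Muc4 to 39.4 times for Muc5b over both pools. The genes were selected on these counts, and the cluster was picked for their highest summed level. The count of 10 therefore follows from that choice. By pool Muc5b stood at 14.4 times ambient in ORFTOC and 125 times in FTOC, and against barcodes of 10 to 50 UMIs at 7.19 times over both. Shares for Lcn2 were 3.24% and 2.99% in the DP class (2.07% and 1.67% thinned) and for Wfdc2 1.30% and 2.66% (0.862% and 1.74% thinned), while thinned airway-like cells gave 94.7% and 80.0% for Lcn2 and 76.7% and 83.6% for Wfdc2.

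The proportions of the genes to each other were followed from cells to background as UMIs per 100 UMIs of Bpifa1. Bpifa1 itself stood lower in FTOC than in ORFTOC airway-like cells (31872 and 74003 CPM), which raises every FTOC proportion. A higher proportion is therefore not a higher level, and Lcn2 had the higher level in ORFTOC (9414 against 5010 CPM). Wfdc2 had 36.1 in FTOC and 5.20 in ORFTOC airway-like cells, with 9.89 in ambient barcodes. DP thymocyte-like cells had 12.8 (8.99 to 17.7) in FTOC and 4.63 (2.19 to 8.68) in ORFTOC. Reg3g had 20.7 and 2.77 in airway-like cells of FTOC and ORFTOC, 4.51 in ambient barcodes, and 4.67 (2.58 to 7.82) and 1.85 (up to 4.81) in DP thymocyte-like cells. Lcn2 varied little, with 15.7 and 12.7 in airway-like cells, 14.4 in ambient barcodes, and 15.9 and 11.1 in DP thymocyte-like cells. The ambient proportions of Wfdc2, Reg3g, Lcn2, Pigr and Gp2 lay between those of the airway-like cells of the pools. That of Wfdc18 did not, with 16.5 in ambient barcodes against 13.4 in FTOC and 6.17 in ORFTOC airway-like cells.

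**Figure D4:**
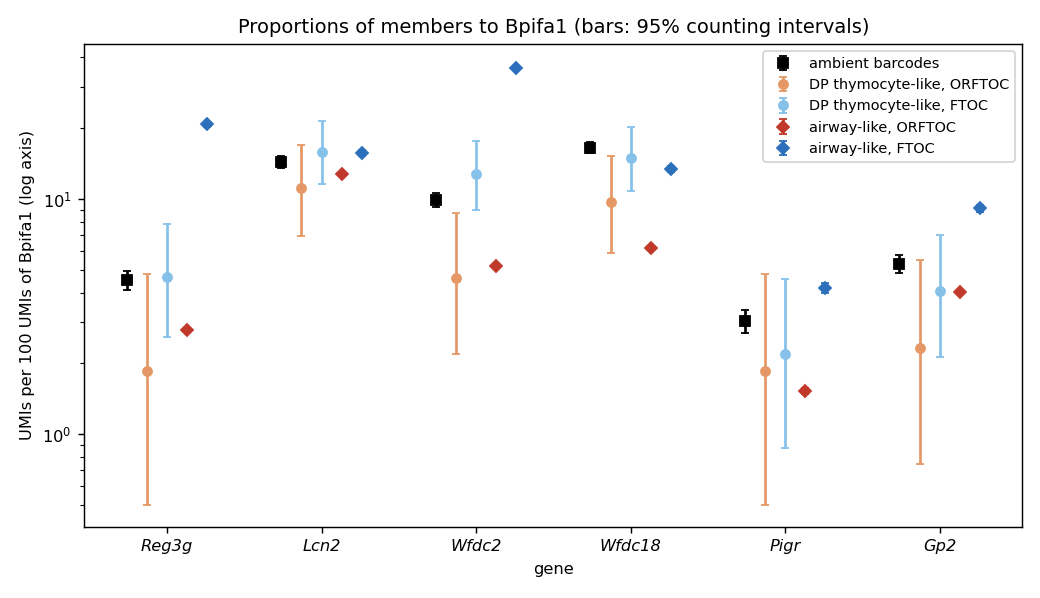
UMIs of 6 genes per 100 UMIs of Bpifa1 on a log axis, in ambient barcodes (black squares), in DP thymocyte-like cells of each pool (circles) and in airway-like cells of each pool (diamonds), with 95% counting intervals as bars. For each gene the FTOC airway-like point lies above the ORFTOC one, widest for Reg3g (20.7 and 2.77) and Wfdc2 (36.1 and 5.20). The lower Bpifa1 level of FTOC airway-like cells raises all of these FTOC points.

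Genes with the most similar pattern were ranked by Pearson r of log-scaled levels over the 2190 epithelial cells, among 12901 genes with a UMI in at least 2% of them. The cells share a lane and a range of depths, and being in the airway-like cluster or not enters every value, so they are a description. Serpinb11 (0.78), Anxa1 (annexin A1, 0.77) and Cldn4 (a tight junction claudin, 0.73) were nearest to Bpifa1, and Anxa1 (0.80), C3 (complement component, 0.79) and Serpinb11 (0.73) to Lcn2. Nupr1, Cyp2f2 and Anxa1 were nearest to both Wfdc2 (0.74, 0.74 and 0.73) and Pigr (0.70, 0.69 and 0.71). Reg3g was nearest to AW112010 (0.48), Agr2 (0.46) and Pglyrp1 (a peptidoglycan-binding protein, 0.42), and Muc5b to Agr2 (0.61), Gfpt2 (0.49) and the mucin gene Muc5ac (0.46). Muc4 was nearest to Muc20 (0.58), Tspan1 (0.51) and the ionocyte-like gene Foxi2 (0.50), and Gp2 to Umod (uromodulin, 0.54), Nupr1 and Serpinb11 (0.53 each). Wfdc18 and Ltf had the loosest neighbours, Clu (0.42), Anxa1 (0.42) and Cldn4 (0.40) for Wfdc18, and Ecm1 (0.45), Plet1 (0.42) and Cxcl5 (0.39) for Ltf. By mean r over the 10 genes Serpinb11, Nupr1, Anxa1, Ces1d, Cyp2f2, Cldn7, Cldn4, Slc12a2, Cldn3 and Arg1 ranked highest.

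Further genes of mucosal defence were read in airway-like cells from lists drawn up by function. Of 26 other antimicrobial genes 15 reached 10 CPM, and 3 were 2-fold or more higher and 7 lower in ORFTOC, with a median log2 ratio of -0.91. Of all 9208 genes at 10 CPM or more in these cells, 3.29% were 2-fold or more higher and 3.55% lower. Pglyrp1 measured 241 CPM in ORFTOC and 691 CPM in FTOC (log2 -1.52), Slpi 437 and 465 CPM, Lbp (lipopolysaccharide-binding protein) 307 and 261 CPM, and Saa3 (an acute-phase serum amyloid) 318 and 74.5 CPM (2.09) with an ambient 98.7 CPM. Of 19 other mucin and goblet cell genes 10 reached 10 CPM, with a median of -1.10. Of these, 1 was higher (3.29% of all genes were) and 5 were lower in ORFTOC (3.55% were). Agr2 measured 48.8 and 507 CPM (-3.38) and the trefoil factor Tff1 9.46 and 265 CPM (-4.81), in the same direction as Muc5b. Tff1 passed the limit of 10 CPM through FTOC alone. Fcgbp, a mucus-binding protein, measured 115 and 94.4 CPM. The gel-forming Muc5ac, 1 of the 3 genes nearest to Muc5b, went the other way, with 297 UMIs (72.1 CPM) and 24 UMIs (19.9 CPM).

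Of 17 transcription factor genes of secretory cells 11 reached 10 CPM in airway-like cells (median -0.09). Of these, 1 was 2-fold or more higher in ORFTOC (3.29% of all genes were) and 0 lower (3.55% were). Xbp1, which drives secretory capacity, measured 345 and 505 CPM, Ehf 373 and 397 CPM, Sox9 362 and 364 CPM, and Elf3 199 and 342 CPM. Of 11 genes of IL-22 and IL-17 receptors and the regulators they act through 10 reached 10 CPM (median 0.25). Of these, 0 passed 2-fold in either direction, beside the same shares of all genes. Cebpb, which codes for a C/EBP factor, measured 763 and 534 CPM (log2 0.51), Stat3 241 and 221 CPM, Cebpd 186 and 302 CPM (-0.70) and Socs3 85.6 and 49.7 CPM. The cytokine genes themselves lay in immune cells, where 5 of 8 reached 10 CPM, 3 of them 2-fold or more higher (3.55% of 8536 genes were) and 1 lower (1.36% were) in ORFTOC. Il22 measured 69.2 CPM in ORFTOC (1442 UMIs) and 21.4 CPM in FTOC (338 UMIs), a log2 ratio of 1.69 (1.52 to 1.87). Il1b measured 50.8 and 13.3 CPM (1.93), Il13 74.8 and 6.45 CPM (3.54) and Tnf 26.1 and 13.5 CPM (0.95). Il17a, named after its values were seen, measured 2.64 CPM (55 UMIs) and 23.8 CPM (377 UMIs), a log2 ratio of -3.18. Il13 passed the limit of 10 CPM through ORFTOC alone and Il17a through FTOC alone. These levels are sums over immune cells whose make-up differed between the pools. The cluster with Il22 among its leading genes had 437 ORFTOC and 109 FTOC cells, and the one led by Il13 235 and 19. The gamma-delta T-like one led by Il17a had 67 and 118. The sums do not separate more cells from more RNA per cell, and levels within these clusters are not given here. The part of these cytokines in the levels of the 10 genes was not tested.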

How the data were processed

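Cells of 2 hashtagged pools were captured in 1 lane for 5′ gene expression, and the V(D)J library was not used here. The deposited values are raw UMI counts per gene or hashtag and barcode, made by the authors with Cell Ranger. The submitters' processing notes name version 6.1.2 and build mm10, and also Seurat 4.2.0, whose objects were not used here. No column of an unmapped sample was present (0).

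Barcodes with at least 600 genes and 0.4 to 10% mitochondrial UMIs were kept (10245 of 10910). Hashtags were called at the 0.99 quantile, which gave 4629 ORFTOC and 4354 FTOC cells, with 590 doublets and 672 cells without a call left out. Another 591 cells were taken out as doublets within a pool because of the called doublets among their 50 nearest neighbours, and 8392 cells remained. Counts were normalised with sctransform 0.4.2 in Seurat 5.3.0 (R 4.3.3). Epithelial cells were clustered without the 10 genes on 18 principal components at resolution 0.4, immune cells at resolution 1. Naming a cluster needed 3 or more markers, each with a UMI in 5% or more of its cells.

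Sums and intervals were computed in Python 3.11.15 (pandas 2.3.3, scipy 1.17.1, numpy 2.4.6) and drawn with matplotlib 3.10.9. With 1 sample a pool no test was run, and a 2-fold difference at 10 CPM or more in either group was counted instead. The scripts were tested on simulated data. The members, lists and markers were chosen with earlier results of these data known. All 10 members are named, with the 3 genes nearest to each by correlation, the 10 nearest on average, and up to 4 genes of each list with the highest epithelial level. Any other gene named was chosen after its values were seen. Alternatives covered cell filters, hashtag calls, doublets, clustering, scaling, thinning and the ambient profile.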

Additional observations from a re-analysis of the deposited data

How the results depend on the processing

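The log2 ratio of the 10 genes' summed epithelial level (1.73 as reported) was 1.78 with at least 1000 genes a cell, 1.37 with hashtags assigned by a ratio of 3, 1.69 with doublets within a pool kept, 1.69 in cells with no Ptprc or Pdgfra UMI, 1.77 with epithelial cells picked by marker counts, 1.76 with the ambient profile subtracted, 1.78 as a mean over single cells, 1.76 scaled to the other genes and 0.70 without Bpifa1. In airway-like cells the summed ratio turned without Bpifa1, from 0.61 to -0.43. The share of their epithelial UMIs in the airway-like cluster (86.6%) was 88.0%, 82.7%, 83.9%, 88.3% and 87.3% under the first 5 of these, 87.5% when clustered with the members and 86.4% from log-normalised counts. Left out after the data had been seen, the epithelial cluster led by T-cell genes changed these values to 1.74 and 87.9%. The share of cells with at least 1 member above ambient was 36.5% in FTOC with hashtags by ratio, and 39.0% in ORFTOC and 20.3% in FTOC after thinning to 1000 UMIs. Single genes turned sign for Muc4 in all epithelial cells (4 of 9 alternatives), and in airway-like cells for Gp2 (5 of 12) and Wfdc18 (1 of 12). Leaving out the top 5% of cells, also chosen after the data had been seen, moved Reg3g most, to -4.25. Against barcodes of 10 to 50 UMIs 9 of 9 genes stood above ambient in the airway-like cluster, which was picked for their highest summed level. Muc4 had no UMI in those barcodes, Muc5b was lowest at 7.19 times and Pigr highest at 31.6 times. No paired analysis was possible because each pool is 1 sample. The cause of these shifts was not tested. Intervals cover counting only, so the spread between cultures is unknown, and genes with few UMIs (Ltf, Muc4) or few carrying cells (Reg3g, Muc5b) are the least certain.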
